A study of Mus musculus with 8 samples.

Results

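The chromatin regions described here were open only after doxycycline (Dox) was taken away from AML246 mouse acute myeloid leukaemia cells. They are called off-Dox-only regions. Peak summits of 8 ATAC-seq libraries, extended by 150 bp to each side and merged, gave 68800 regions on chromosomes 1 to 19, X and Y, and a region counts as open in a library that has a summit in it. The members were selected on summit calls alone: an off-Dox-only region was open in at least 2 of the 3 libraries made after withdrawal and in none of the 5 made before it. The rule took 2264 regions, which is 3.29% of all regions (3.16 to 3.43, exact Clopper-Pearson 95% interval). Without chromosome 4 it took 2024 of 64174, or 3.15%. The rule read the same summit lists that are described below, so this count is a description and was not tested.

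The libraries after withdrawal came from total viable cells that had received 0.1 µg/mL Dox for 12 days and had then been without it for 4, 8 or 12 days, which the labels call PU.1 knockdown. The earlier libraries came from total viable cells before Dox (day 0) and at day 4, 8 and 12 of Dox, which the labels call PU.1 restoration, and from viable cells sorted for high CD11b at day 12. All cells were of 1 line, grown with IL-3, and each group was 1 library, so there was no spread between replicates and no p-value could be given. The lists of the off-Dox libraries held 51175, 41526 and 31957 summits at 4, 8 and 12 days off. The earlier lists held between 35139 and 47060.

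PU.1, encoded by Spi1, is an ETS-family transcription factor that binds a purine-rich motif, opens chromatin at myeloid enhancers and is needed for macrophage and neutrophil development. Low PU.1 activity is known to favour leukaemia in the mouse. ATAC-seq uses a transposase that inserts sequencing adapters into accessible DNA, so that promoters and enhancers in use give peaks. RUNX, C/EBP and AP-1 factors, whose motifs are named below, act with PU.1 at many myeloid enhancers. A region without a summit was not called in that library, which does not show that it was closed.

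Promoters were the only off-Dox-only regions whose sequence could be read. A promoter window here is the 250 bases before and 50 bases after an annotated start, in the RefSeq table of GRCm38.p6 (mm10), and 75 off-Dox-only regions (3.31%; 2.61 to 4.13) had their midpoint in one. Below are windows of 4 protein-coding genes that held such a region, had no earlier summit within 1 kb and carried the RUNX letters TGTGGT, the motif that is set out with its shares further on. Each sequence is given 5′ to 3′ on the gene's strand, and capitals mark every match, on either strand, to the motifs searched. In these windows the RUNX match reads TGTGGT or, on the other strand, ACCACA. The remaining capitals are an E-box (CAGCTG) at Arpp21 and a CCAAT box at Gm42372.
Arpp21, minus strand, chr9:112217212-112217511: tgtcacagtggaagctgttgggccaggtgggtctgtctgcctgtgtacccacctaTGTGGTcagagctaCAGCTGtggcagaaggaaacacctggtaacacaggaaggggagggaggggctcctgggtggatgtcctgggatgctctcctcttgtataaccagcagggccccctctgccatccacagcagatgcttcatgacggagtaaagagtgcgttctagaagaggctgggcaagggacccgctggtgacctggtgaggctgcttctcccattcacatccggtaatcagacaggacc
Gm42372, plus strand, chr7:16982833-16983132: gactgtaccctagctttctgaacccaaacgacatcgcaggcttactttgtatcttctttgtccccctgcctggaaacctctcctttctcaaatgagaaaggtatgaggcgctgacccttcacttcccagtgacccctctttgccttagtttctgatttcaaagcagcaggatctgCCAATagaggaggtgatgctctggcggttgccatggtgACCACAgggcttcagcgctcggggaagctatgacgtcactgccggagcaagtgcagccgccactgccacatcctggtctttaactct
Zfp558, minus strand, chr9:18473510-18473809: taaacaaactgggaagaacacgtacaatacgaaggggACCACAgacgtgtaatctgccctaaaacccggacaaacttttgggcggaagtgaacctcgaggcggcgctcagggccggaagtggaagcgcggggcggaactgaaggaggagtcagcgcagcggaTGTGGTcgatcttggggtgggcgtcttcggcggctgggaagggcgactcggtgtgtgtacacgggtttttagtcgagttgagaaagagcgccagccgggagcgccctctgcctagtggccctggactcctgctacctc
Lipe, minus strand, chr7:25390063-25390362: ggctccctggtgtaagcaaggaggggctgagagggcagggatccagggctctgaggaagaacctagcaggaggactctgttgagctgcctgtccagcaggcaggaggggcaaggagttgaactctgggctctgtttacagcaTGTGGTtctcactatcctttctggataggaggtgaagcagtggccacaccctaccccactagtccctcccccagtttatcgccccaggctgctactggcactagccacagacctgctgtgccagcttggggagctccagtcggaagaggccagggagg

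Arpp21 encodes a phosphoprotein regulated by cyclic AMP. Its region at chr9:112217265-112217589 scored 11.6 at 4 days off and 7.08 at 8 days off and had no summit at 12 days off. The score is that of the authors' peak caller, read here as a −log10 p-value or q-value. At Zfp558, a zinc finger gene, the scores were 6.20 at 4 days off and 8.08 at 8 days off, and the nearest earlier summit lay 181176 bp away. At Lipe, which encodes hormone-sensitive lipase, the region was open in all 3 off-Dox lists, with scores of 8.61, 8.12 and 3.74 at 4, 8 and 12 days off. At Gm42372 the scores were 10.2 at 4 days off and 6.49 at 8 days off. None of these regions scored above the median of its list, which was 12.43, 11.67 and 10.12 at 4, 8 and 12 days off.

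Which off-Dox lists held the new regions changed when the lists were cut to equal length. Of the 2264, 1431 (63.2%) were open at 4 and 8 days off, 254 (11.2%) at 4 and 12, 212 (9.36%) at 8 and 12, and 367 (16.2%) at all 3 times, the last being 0.533% of all regions. The regions just outside the rule, open in 1 off-Dox list and no other, numbered 5453 at 4 days off, 1757 at 8 days off and 832 at 12 days off, together 8042 or 11.7% of all regions. Asking for both of 2 lists took 579 regions without the 4-day list, 621 without the 8-day list and 1798 without the 12-day list. The rule itself fixes these counts, and the longest of the off-Dox lists was that at 4 days off. When every list was shortened to its 31867 best summits, the rule took 1230 regions, with 332 (27.0%) at 4 and 8 days off, 216 (17.6%) at 4 and 12, 383 (31.1%) at 8 and 12, and 299 (24.3%) at all 3 times. The cut also dropped low-scoring summits, among them those of the earlier lists, so it did not change length alone.

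The list that the choice did not use gave a reading of its own. Of 1798 regions open at 4 and 8 days off and in no earlier list, 20.4% (18.6 to 22.3) were also open at 12 days off. The reopened regions were taken as the comparison, which means regions open at day 0, in none of the Dox lists or the CD11b-high list, and again in at least 2 off-Dox lists. They numbered 1336. Of the 1113 reopened regions open at both 4 and 8 days off, 49.0% (46.0 to 51.9) were open at 12 days off. Of all regions, 45.3% were open in that list. Without chromosome 4 the shares were 19.8% of the new and 48.2% of the reopened regions. With the 8-day list held back, the shares were 59.1% (55.1 to 63.0) of off-Dox-only and 87.1% (84.2 to 89.6) of reopened regions, and with the 4-day list held back 63.4% (59.3 to 67.3) and 79.3% (76.1 to 82.3). New regions were seen again less often than reopened ones in each of the 3 lists, by more than the counting error. The sets were not chosen alike, since reopened regions also needed a summit at day 0 and new regions had to lack it. New regions also scored lower than reopened ones, as set out below. The part of these differences in the shares was not tested. Regions that scored higher were seen again more often: in 4 groups of rising score in the 4-day and 8-day lists, 12.4, 15.6, 21.4 and 32.4% of the new regions were open at 12 days off. With lists of equal length, the shares open at 12 days off were 47.4% (43.4 to 51.4) of the new and 73.1% (69.6 to 76.4) of the reopened regions. The same reading was made for regions seen on Dox, with no summit at day 0 or after withdrawal. Of those open in both other Dox lists, 36.7% were open at day 4, 88.5% at day 8 and 60.1% at day 12. Of all regions, 50.1, 66.8 and 49.6% were open in those lists.

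**Figure D1:**
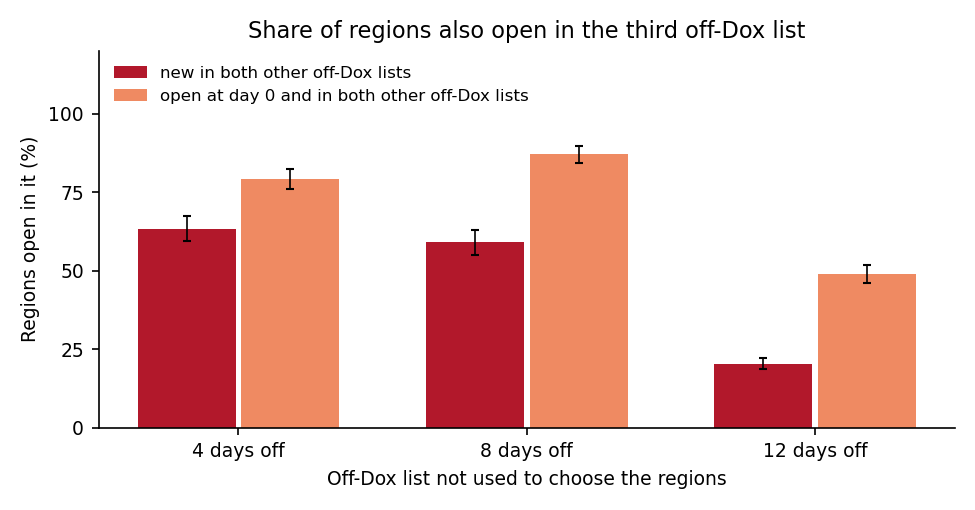
Share of regions open in the off-Dox list that was not used to choose them (y axis, %), by that list (x axis). Dark red bars are regions new in both other off-Dox lists and orange bars regions open at day 0 and in both other off-Dox lists, with exact 95% intervals for counting error; the new regions stand lower in all 3 lists, with 20.4% against 49.0% at 12 days off.

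Off-Dox-only regions were weak peaks. Their scores had a median at percentile 22.8, 17.5 and 14.4 of the 4-day, 8-day and 12-day lists, which is a score of 6.28, 5.77 and 4.89. The reopened regions lay at percentile 32.0, 29.1 and 23.2, and the 18733 regions open in all 8 libraries, called always open below, at 80.5, 76.1 and 68.8. Regions open in 1 off-Dox list only lay at 14.0, 10.3 and 9.48. Other sets chosen by missing summits also lay low in the earlier lists. Reopened regions had a median at percentile 19.1 at day 0. The on-Dox-only regions, defined below, had medians at 19.6, 34.9 and 24.8 at day 4, 8 and 12. How far the rule itself selects low scores was not tested. Percentiles from lists of different length do not show a change between times. Above the middle of the list, 37 members (1.63%) had a mean percentile over 50. Counting only off-Dox summits with a score of at least 10 left 58 regions, of which 51 lay outside chromosome 4. Within an off-Dox-only region, summits of the 4-day and 8-day lists lay a median of 31.0 bp apart. The spacing was 30.0 bp in reopened and 21.0 bp in always open regions. Merging joins only nearby summits, which bounds both this spacing and the length of a region. Off-Dox-only regions had a median length of 338 bp and reopened regions one of 372 bp.

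**Figure D2:**
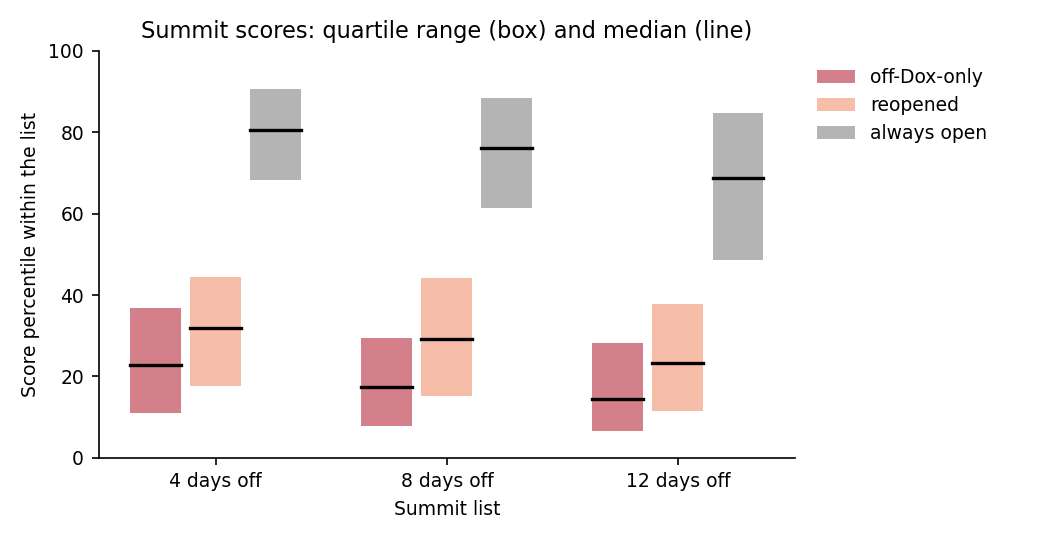
Percentile of summit scores within each off-Dox list (y axis) at 4, 8 and 12 days off (x axis), with boxes for the quartile range and lines for the median. Off-Dox-only regions (dark red) have medians of 22.8, 17.5 and 14.4, below reopened (orange) and always open regions (grey).

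The 10 members with the highest scores all had a summit of an earlier list within 1 kb, and 7 of them lay within 1 kb of a gene end. The first was a region at chr6:124829349-124829747, at the end of Cdca3, which encodes a cell cycle protein. It scored 52.1 at 8 days off and 43.1 at 12 days off, without a summit at 4 days off, and an earlier summit lay 198 bp away. At Dscc1, needed for cohesion of sister chromatids, the scores were 46.9 at 4 days off and 44.7 at 8 days off, with an earlier summit 221 bp away. At Mlf2, a relative of the myeloid leukaemia factor gene Mlf1, a region lying 457 bp outside the gene had scores of 54.4, 40.1 and 32.0, and an earlier summit lay 168 bp away. The others were nearest to Ilvbl, Pgls, Pecr, Ulk3, Ahcy, Cdc14b and Pigk, with mean percentiles between 71.5 and 91.6 and earlier summits 155 to 324 bp away. Distances run from the edge of the region, 150 bp past its outermost summit. An earlier summit up to 150 bp from that edge would have been merged into the region. These high scores thus stood beside peaks that were open before, and none of the 10 was on chromosome 4. Of all 2264 members, 419 (18.5%; 16.9 to 20.2) had an earlier summit within 1 kb and 1845 had none. The median distance to the nearest earlier summit was 5839 bp.

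Among the 1845 members with no earlier summit within 1 kb, the highest mean percentile was 62.2. It belonged to a region inside Hivep3, a zinc finger factor that binds κB-like sites, at chr4:120082513-120082823. Its scores were 19.2 at 4 days off and 14.8 at 8 days off, with no summit at 12 days off. A region inside Dhrs3, a retinaldehyde reductase gene, scored 27.2, 14.3 and 9.48 at 4, 8 and 12 days off, and its nearest earlier summit was 5472 bp away. A region 219 bp from Esrp1, a splicing regulator of epithelial cells, scored 20.0, 18.4 and 9.65. All 3 lie on chromosome 4, as does a region 53991 bp from Rgs3, a regulator of G protein signalling, which scored 12.9, 12.2 and 13.4. Outside chromosome 4, a region inside Zcwpw2 scored 16.3, 11.5 and 13.2 and had no earlier summit within 88992 bp. Calm3, a calmodulin gene, held a region with scores of 20.3 at 4 days off and 10.7 at 8 days off. A region 26717 bp from Fos, the AP-1 subunit gene, scored 20.3 at 4 days off and 10.2 at 8 days off. The list of 10 was completed by regions nearest to Nucks1 and Sec14l1 and by one on chromosome 19 with no protein-coding gene within 100 kb. This second list was drawn up after the first had been seen.

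Chromosome 4 carried more off-Dox-only regions than the other autosomes. It had 240 members among 4626 regions, or 5.19% (4.57 to 5.87), beside 3.20% of the regions of the other autosomes. The odds ratio was 1.66 (1.44 to 1.90, Woolf 95% interval). For reopened regions the same odds ratio was 1.21 (0.995 to 1.48), and for on-Dox-only regions, open in at least 2 of the day 4, 8 and 12 lists and neither at day 0 nor after withdrawal, it was 0.788 (0.662 to 0.937). The chromosome was cut into 4 stretches with nearly equal numbers of regions, and each held members. The shares were 5.96% (4.67 to 7.49), 5.88% (4.60 to 7.40), 3.72% (2.70 to 4.98) and 5.19% (3.98 to 6.63). The interval of the third stretch spanned the 3.20% of the other autosomes. Chromosome 4 made up 15.6% of the members open at 8 and 12 days off, 13.1% of those open at all 3 times, 9.57% of those open at 4 and 8 days off and 8.66% of those open at 4 and 12. Of regions open in 1 list only, it held 6.73, 10.9 and 11.2% at 4, 8 and 12 days off, and between 4.74 and 6.38% in the earlier lists. Among always open regions, those of chromosome 4 had a median score rank at percentile 53.9, 59.0 and 58.5 at 4, 8 and 12 days off, and between 48.0 and 52.8 in the earlier lists. The medians of the other autosomes ran from 44.0 to 55.6 in the off-Dox lists. The chromosome therefore ranked above every other autosome at 8 and 12 days off in regions that were open throughout, and the part of this in the count of new regions was not tested. With all lists cut to equal length the odds ratio was 1.51 (1.25 to 1.82), and with off-Dox scores of at least 10 it was 2.0 (0.904 to 4.40).

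Among the other chromosomes, chromosome 2 had 177 members or 3.99% (3.44 to 4.61) of its regions, with an odds ratio of 1.28 (1.10 to 1.50) over the other autosomes without chromosome 4. Chromosome X had 17 of 1388, or 1.22% (0.715 to 1.95), with an odds ratio of 0.375 (0.232 to 0.607). Its reopened share was 1.15% (0.660 to 1.87), beside 1.94% of all regions, and its on-Dox-only share 4.61% (3.57 to 5.85), beside 3.75%. Always open regions of chromosome X ranked at percentile 41.1, 40.4 and 42.4 at 4, 8 and 12 days off, and at 52.2 at day 0, 50.4 at day 4, 42.3 at day 8, 44.3 at day 12 and 44.1 in CD11b-high cells. The part of these ranks in the low count was not tested. Chromosomes were looked at after the counts were known, and neighbouring regions are not independent, so the intervals are too narrow.

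**Figure D3:**
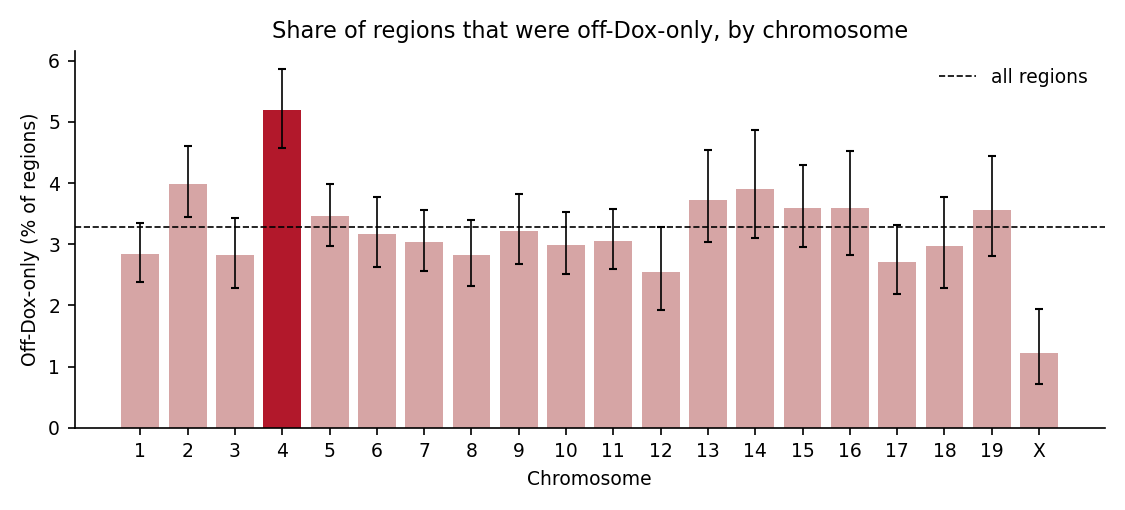
Off-Dox-only regions as a share of all regions of a chromosome (y axis, %) for chromosomes 1 to 19 and X (x axis), with exact 95% intervals for counting error and a dashed line at the 3.29% of all regions. Chromosome 4 (dark red) stands at 5.19% and chromosome X at 1.22%.

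The new regions lay mostly away from gene ends. Within 1 kb of an end of a protein-coding gene were 10.6% (9.40 to 12.0) of them, inside a gene and farther from its ends 48.3% (46.2 to 50.4), and outside genes 41.0% (39.0 to 43.1). Always open regions were near a gene end in 43.9%, an odds ratio of 0.152 (0.133 to 0.175) for off-Dox-only over always open. Reopened regions were near a gene end in 12.6% (10.8 to 14.5), and the odds ratio of 0.828 had an interval of 0.672 to 1.02. The share was 8.26% (7.23 to 9.39) of the 2579 on-Dox-only regions, with an odds ratio of 1.32 (1.09 to 1.61), and of 1.20 (0.977 to 1.47) when summits that scored under 5 were dropped from all 8 lists. It was 2.02 (1.58 to 2.59) with summits extended by 250 bp, and 2.13 (1.6 to 2.85) when regions with a nearby summit of a list that should lack them (within 1 kb) were left out of both sets. Across 12289 other regions open in 2 or 3 of the 8 lists it was 13.1% (12.5 to 13.7), so off-Dox-only regions were near a gene end somewhat less often than other seldom-called regions, with an odds ratio of 0.790 (0.684 to 0.911). The order of the sets was the same without chromosome 4, where 10.7% of off-Dox-only regions were near a gene end. Among members with no earlier summit within 1 kb the share was 7.26%. The gene table gives no strand or exons, so gene ends stand for starts and stops together, and placement in exons or introns was not analysed here.

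**Figure D4:**
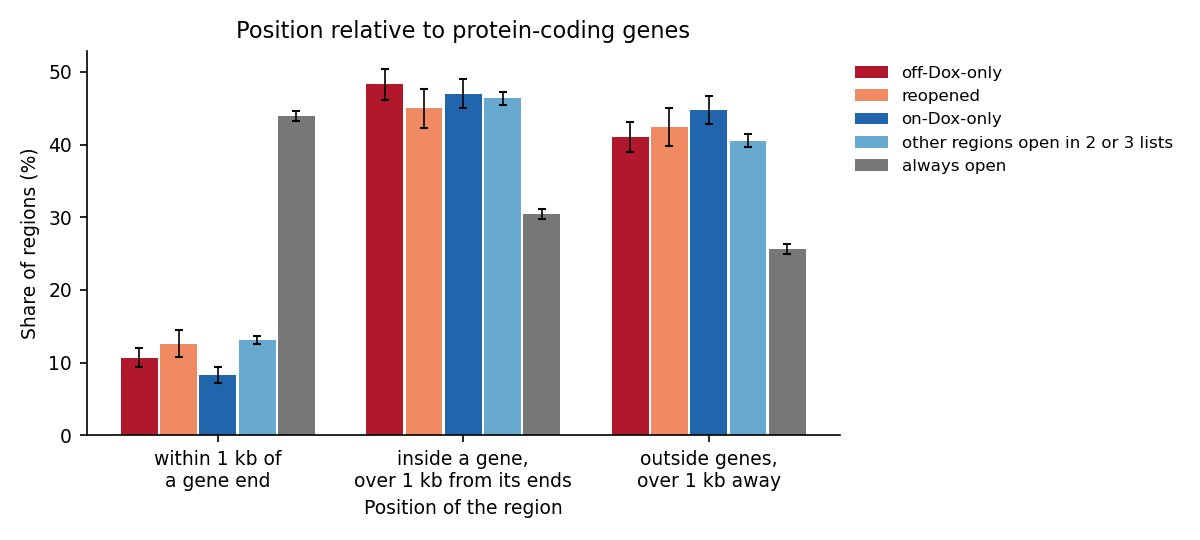
Share of regions (y axis, %) within 1 kb of a gene end, inside a gene and outside genes (x axis), for off-Dox-only, reopened, on-Dox-only, other regions open in 2 or 3 lists and always open regions, with exact 95% intervals for counting error. Off-Dox-only regions were near a gene end in 10.6%, always open regions in 43.9%.

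The 75 members in promoter windows touched 81 windows of 77 genes, and 20 of the 75 had an earlier summit within 1 kb. The RUNX letters TGTGGT, bound by RUNX1 and its relatives in blood cells, were in 22 of the 81 windows, or 27.2% (17.9 to 38.2). They were in 18.8% (11.2 to 28.8) of windows with a reopened region, 13.1% (5.84 to 24.2) of windows with an on-Dox-only region, 11.8% (11.1 to 12.6) of windows with an always open region and 16.8% of all 32851 windows. The ETS letters GAGGAAGT, a form of the site that PU.1 binds, were in 2 of the 81 windows, or 2.47% (0.300 to 8.64). They were in 13.1% (5.84 to 24.2) of the windows with an on-Dox-only region and 3.20% of all windows. With a reopened region the share was 0% and with an always open region 3.23%. AP-1 letters (TGANTCA) were in 12.3% (6.08 to 21.5) of windows with an off-Dox-only region and 7.81% of all windows. Their share was 4.71% with a reopened, 13.1% with an on-Dox-only and 4.21% with an always open region. The E-box CAGCTG was in 24.7% (15.8 to 35.5), beside 29.4% with a reopened region, 8.20% with an on-Dox-only region and 16.3% of all windows. GATA letters (AGATAA) were in 4.94%, beside 11.2% of all windows. Their share was 7.06% with a reopened, 8.20% with an on-Dox-only and 4.32% with an always open region. C/EBP letters (TTGCNNAA) were in 11.1%, beside 10.8% of all windows and, in the same order, 3.53, 14.8 and 7.67%. The CTCF letters CCACNAGNG were in 7.41%, beside 4.10% and 3.53, 6.56 and 4.72%. The CCAAT box was in 29.6%, beside 37.4% and 30.6, 27.9 and 44.2%.

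These 8 motifs were searched on both strands, and matches of different motifs could overlap. Windows of alternative starts of 1 gene, or of neighbouring genes, can share bases. At 1810034E14Rik and Cdc14b, 1 member fell in overlapping windows that both counted for RUNX. The interval of the RUNX share began at 17.9%, just above the 16.8% of all windows, and overlapped those of reopened and on-Dox-only windows. No allowance was made for the 8 motifs or for members counted in more than 1 window. Base composition moved with the sets: the median G+C content was 57.7% in off-Dox-only windows, 61.7% in reopened, 53% in on-Dox-only, 62.7% in always open and 52.7% in all windows, and its part in the motif shares was not tested. A match is a description of letters and not of binding, and the 2189 members outside promoter windows could not be searched.

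**Figure D5:**
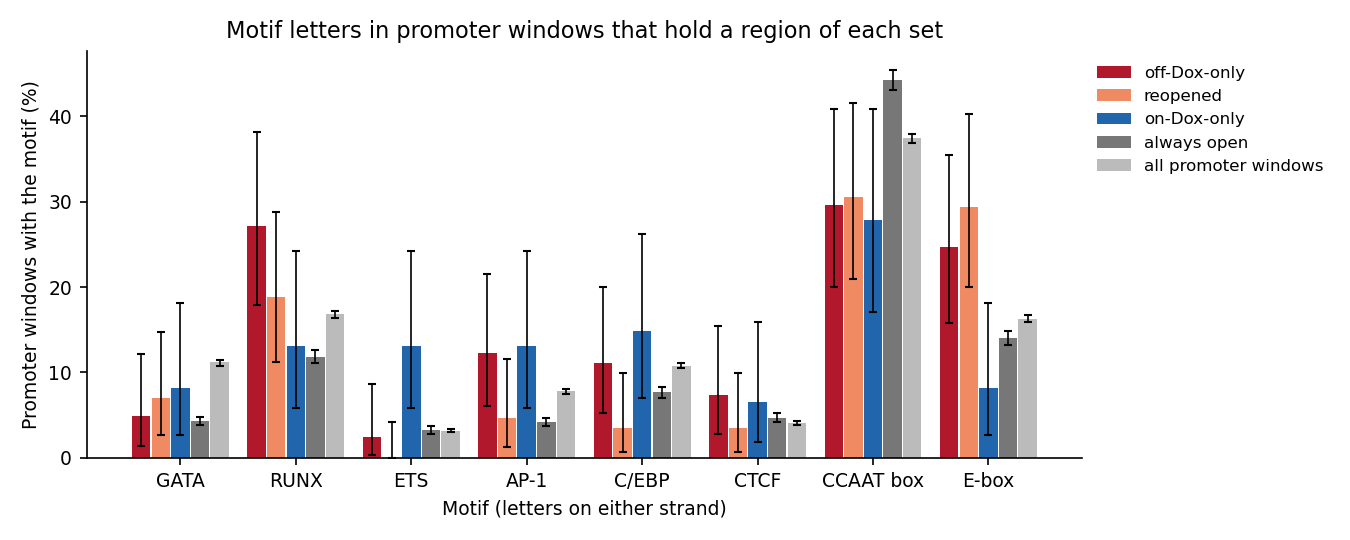
Share of promoter windows with the letters of each motif (y axis, %) for 8 motifs (x axis), in windows that held an off-Dox-only, reopened, on-Dox-only or always open region and in all windows, with exact 95% intervals for counting error. RUNX letters stand at 27.2% in off-Dox-only windows and 16.8% in all windows.

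Nearest genes were assigned within 100 kb, which gave 2075 members among 64636 regions, or 3.21%, and 1860 among 60283, or 3.09%, without chromosome 4. The members fell on 1828 genes, of which 1615 had 1 member, 183 had 2, 27 had 3, 2 had 4 and 1 had 5. Genes with a member had a median of 6 regions, members included, beside 3 over all 16275 genes with a region. A gene with more regions has more chances to hold a member, and counts of members per gene were not adjusted for this. Camta1, a calmodulin-binding transcription activator gene on chromosome 4, had 5 members among its 30 regions. All 5 lay inside the gene, and the highest scored 8.98, 6.24 and 4.63 at 4, 8 and 12 days off, with an earlier summit 260 bp away. Hivep3, also on chromosome 4, had 4 of 24, of which the region at chr4:120032410-120032918 scored 7.67, 12.5 and 8.43. Fryl on chromosome 5 had 4 of 19, each in 2 lists and none with a score above 5.77.

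Not all of the 27 genes with 3 members are named here. Among those named, Esrp1, Jun and Rgs3 lie on chromosome 4. Outside it, Ano1, a calcium-activated chloride channel gene, had 3 members among 17 regions and all 3 were open at all 3 times off. The first scored 9.63, 12.1 and 8.17, with an earlier summit 822 bp away. Intu, a gene of planar cell polarity and cilium formation, had 3 of 12. Its region at chr3:40653103-40653451 scored 14.5, 10.2 and 9.67 and lay 41200 bp from the nearest earlier summit. Gnaq, a G protein subunit gene, had 3 of 20, the kinase gene Sik3 3 of 14, Prkag2, a subunit gene of the AMP-activated kinase, 3 of 31, and Tbxas1, the thromboxane synthase gene, 3 of 20. Afap1, Tmcc1, Ltbp1, Mgat5 and Trappc9 also had 3 each. These counts were small and moved with the lists used. Without the 4-day list Gnaq, Afap1 and Ltbp1 had 0 members, Fryl 1, Hivep3 2 and Camta1 3, and the same counts came without the 8-day list. Fryl had 2 without the 12-day list. With lists of equal length Gnaq and Afap1 had 0, Fryl 1 and Camta1 2. Ano1 kept a count of 3 in each of these settings.

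At the genes of PU.1 and of markers of stem and myeloid cells, the counts were too small to be set against the 3.21% of all assigned regions. Spi1 itself had no member among 7 regions, which allows a share of up to 42.9%, Itgam, which encodes CD11b, none among 6, and Cd34, a progenitor marker, none among 15. Kit, the stem cell factor receptor gene, had 1 of 10, a region 66225 bp outside the gene with scores of 7.23 at 4 days off and 7.91 at 8 days off. Csf1r, the macrophage colony-stimulating factor receptor gene, had 1 of 3, inside the gene, with scores of 4.49 at 4 days off and 4.38 at 12 days off. Always open regions were 2 of 7 at Spi1, 1 of 6 at Itgam, 4 of 15 at Cd34, 2 of 10 at Kit and 0 of 3 at Csf1r.

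Known PU.1 targets held 9 members among 146 regions, or 6.16% (2.86 to 11.4), and 5 of 118, or 4.24% (1.39 to 9.61), without chromosome 4. On that chromosome 3 were nearest to Jun, the AP-1 subunit gene. Another 1 lay 46652 bp outside Klf4, a factor of monocyte differentiation. The region inside Jun, at chr4:95049937-95050251, scored 9.97, 12.2 and 7.51 at 4, 8 and 12 days off. It lay 1964 bp from an earlier summit. The other regions of Jun lay 30345 and 53255 bp outside it, with earlier summits 508 and 385 bp away. The nearer scored 5.45 and 5.28, and the farther 1.95 and 3.68, at 4 and 8 days off. The other members of the list were 1 each at Cebpe, Csf1r, Csf2ra, Id2 and Syk. The region 1377 bp from Id2, an inhibitor of helix-loop-helix factors, scored 8.55 at 8 days off and 8.53 at 12 days off. AP-1 and stress response genes held 5 members of 98 (5.10%), and 2 of 81 (2.47%) without chromosome 4. Of the 5, 3 were nearest to Jun and 1 each to Fos and Asns, the asparagine synthetase gene. ETS and RUNX factor genes held 7 of 202 (3.47%): 2 at Erg and 1 each at Elf1, Elk3, Fli1, Runx1 and Runx3. The Fli1 region scored 7.35 at 4 days off and 5.57 at 8 days off.

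Stem and progenitor genes held 5 members of 119 (4.20%; 1.38 to 9.53), none on chromosome 4: 2 at Erg and 1 each at Flt3, Ikzf2 and Kit. The region inside Flt3, a progenitor receptor gene, scored 13.0 at 4 days off and 7.81 at 8 days off. Genes of the GATA, TAL1 and LMO2 complex held 1 of 87, at Runx1, and erythroid genes 0 of 21, which allows a share of up to 14.3%. Megakaryocyte genes held 4 of 57 (7.02%), with 2 at the integrin gene Itgb3, 1 at Fli1 and 1 at Vwf. Myeloid growth factor and cytokine receptor genes held 4 of 83 (4.82%), at Csf1r, Csf2ra, Flt3 and Kit.

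Monocyte and macrophage genes held 4 of 84 (4.76%; 1.31 to 11.7), with 2 at Ly86, a partner of the Toll-like receptor relative RP105, and 1 each at Csf1r and Klf4. The region 90524 bp from Ly86 scored 10.5, 15.8 and 8.83 at 4, 8 and 12 days off, with no earlier summit within 26520 bp. Neutrophil and granulocyte genes held 3 of 58, at Cebpe, Ctsg and Gfi1, mast cell and basophil genes 1 of 36, at Prss34, and eosinophil genes 0 of 24, which allows up to 12.5%. Dendritic cell genes held 5 of 85, T cell and NK cell genes 5 of 120, and B cell genes 3 of 48. At Bcl11b, a T cell factor gene, a region 50643 bp away scored 16.5 at 4 days off and 5.17 at 8 days off.

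Cell cycle genes held 5 members of 130 (3.85%), of which 4 were on chromosome 4, and 1 of 104 (0.962%) without it. The 2 regions nearest to Cdkn2b, a gene for an inhibitor of cyclin-dependent kinases, were open at all 3 times off, with scores of 8.90, 14.7 and 8.39 at the first and 7.61, 8.02 and 7.46 at the second. They lay 40691 and 55995 bp outside the gene, which had no always open region. A region inside E2f2 scored 20.8 at 4 days off and 8.60 at 8 days off. Signalling oncogenes and tumour suppressors held 3 of 144. Chromatin regulators held 3 of 155, survival and p53 genes 3 of 98, adhesion genes 2 of 98 and interferon response genes 2 of 41. Inflammatory and NF-kB genes held 0 of 108, which allows a share of up to 2.78%, and efflux and retinoid handling genes 0 of 56, up to 5.36%. Non-blood tissue genes, listed as a background, held 2 of 27, at Col1a1 and Snap25, and housekeeping genes 2 of 59, both at Ywhaz.

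Over the 25 lists together, 61 of 1908 regions were members, or 3.20%, next to the 3.21% of all assigned regions, and 14 of the 61 were on chromosome 4. The median share of a list was 3.85%. The interval of every list with a member spanned 3.21%. For inflammatory and NF-kB genes, the limit of 2.78% lay below that share, while the exact interval ran to 3.36%. No list can be called richer or poorer in new regions at these counts. Known PU.1 targets had 4 members without the 4-day list, 4 without the 8-day list, 7 without the 12-day list and 5 with lists of equal length. AP-1 and stress response genes had 1, 1, 5 and 4 in the same settings, and cell cycle genes 2, 2, 5 and 6. With lists of equal length, erythroid genes and inflammatory and NF-kB genes had 1 member each.

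Some genes with a new region also had regions of the other sets. Of the 1828 genes, 240 (13.1%) also had a reopened region and 407 (22.3%) an on-Dox-only region, beside 7.05% and 12.4% of all genes with a region. The larger number of regions at these genes moves with those shares, and its part was not tested. At 1253 of the 1828 genes there was neither. At least 1 always open region was present at 73.2% of the genes with a member and 69.3% of all genes.

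Off-Dox-only regions had a neighbour of their kind about as often as on-Dox-only regions. The share was not computed over all regions or without chromosome 4. Another member lay within 100 kb of 706 members, or 31.2% (29.3 to 33.1), compared with 20.1% (17.9 to 22.3) of the fewer reopened and 32.7% (30.9 to 34.6) of the on-Dox-only regions. There were 57 runs of 3 or more members, each within 100 kb of the next, compared with 11 in the reopened and 96 in the on-Dox-only regions, whose longest runs held 4 and 8. The longest run of off-Dox-only regions held 6 members in 188901 bp of chromosome 2, from 35259762 to 35448662, over Gsn, which encodes the actin-severing protein gelsolin, Stom, a membrane protein gene, 4930568D16Rik and Ggta1, a glycosyltransferase gene. At Gsn the higher of 2 members scored 15.3 at 4 days off and 8.08 at 8 days off, and at Stom the member scored 12.3 at 4 days off and 3.82 at 8 days off. The first member of Ggta1 scored 11.7, 5.17 and 6.93 at 4, 8 and 12 days off. Runs of 4 members numbered 10. They included Lasp1, Fbxo47 and Pip4k2b on chromosome 11, Colq, Btd and Ankrd28 on chromosome 14, and on chromosome 15 one over Pla2g6, Tmem184b, Csnk1e and Kcnj4 and one over Krt18, Tns2, Spryd3 and Zfp740.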

How the data were processed

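ATAC-seq summits of 8 libraries were deposited as 1 list per library, each summit with a score taken to be a −log10 p-value or q-value of the authors' peak caller, since the lists begin near the value of 0.05. The sources used here do not give which of them it is, nor the aligner, the MACS2 version or the depth. Per the submitters' processing notes, MACS2, Picard 2.14.0 and mm10 were used. The labels' extraction text also mentions ChIP, while the series title and library preparation name ATAC-seq.

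Intervals of 150 bp on either side of each summit (chromosomes 1 to 19, X and Y) were merged with Python 3.11.15, pandas 2.3.3, numpy 2.4.6 and scipy 1.17.1. Between 85 and 121 summits per list were on other contigs and were dropped. Regions went to the nearest protein-coding gene span within 100 kb (RefSeq, GRCm38.p6). Of 364 listed genes, 362 matched. Intervals are exact Clopper-Pearson for shares and Woolf for odds ratios, cover counting error only, and no test was run with 1 library per group. A limit for a count of 0 is 3 counts of the total. The code of the rule was checked on planted summits set far from real ones, which the merge must recover by design. That check does not cover members with an earlier summit nearby.

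Members and lists were chosen with earlier results of these data known. Named were the 12 genes with most members, up to 4 per list, the genes of the 10 highest-scoring members and of the 5 longest runs, up to 10 genes with a member in a promoter window, and Spi1, Itgam, Kit, Csf1r and Cd34. The promoter table covers part of the genes, and some of these genes are not described.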

Additional observations from a re-analysis of the deposited data

How the results depend on the processing

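The odds ratio for chromosome 4 over the other autosomes stayed above 1 under each alternative run. That for gene ends over on-Dox-only regions did so where it was run. It was not run for off-Dox score limits, all 3 lists, a left-out off-Dox list or without the CD11b-high list. The gene-end odds ratio was 0.828 (0.672 to 1.02) over reopened, 0.790 over other seldom-called and 0.152 over always open regions. The order of shares inside and outside genes, 48.3% and 41.0%, turned round with scores of at least 10, and AP-1 and cell cycle genes fell below the share of all assigned regions without chromosome 4. No paired analysis was possible because each group is 1 library. Of the main counts, shares and odds ratios under the alternatives, 85 were kept, 32 moved and 2 lost an interval that excluded 1. A count was kept within 1.5 times and a share within the interval of the reported value. An odds ratio was kept if its interval stayed on the same side of 1, whatever its size. The gene-end odds ratios of 2.02 and 2.13 thus count as kept beside 1.32. Counting only off-Dox summits scoring at least 5 left 1154 regions (1034 without chromosome 4), 11.4% of them open at all 3 times, and 14.0% of those new at 4 and 8 days off open at 12. With a score of at least 10, chosen after seeing the data, 58 were left (51), with 22.4% near a gene end, 34.5% inside and 43.1% outside genes, 12.1% on chromosome 4, 8.62% open at all 3 times, 10.6% open at 12 days off, and a chromosome 4 odds ratio of 2.0 (0.904 to 4.40). A score of at least 5 in all 8 lists brought the gene-end odds ratio over on-Dox-only regions to 1.20 (0.977 to 1.47), extending summits by 250 bp to 2.02 and leaving out regions with a nearby summit to 2.13. Lists of equal length gave 1230 regions (1109), 24.3% open at all 3 times and 47.4% open at 12 days off. Asking for all 3 off-Dox lists gave 367 (319), with 7.90% near a gene end, 51.2% inside genes and 13.1% on chromosome 4. Without the 4-day list there were 579 (498), 14.0% on chromosome 4, and without the 8-day list 621 (551), 38.8% outside genes. Extending summits by 100 or 250 bp put 12.7% or 8.81% near a gene end, and leaving out members with an earlier summit within 1 kb 7.26% (7.41% without chromosome 4), with 43.3% outside genes. Counts per gene moved by over 1.5 times in 97 of 255 values for 17 genes, and counts per list in 135 of 375 for 25 lists. Causes were not tested beyond what each alternative removes. Assigning genes by distance to a start was not run, since the start table covers part of the genes. Read depth is unknown, so a missing summit limits every call.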
